A study of Homo sapiens with 13 samples.

Results

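The FOXA1 peaks around 4 genes of the Wnt pathway, WNT4, WNT5A, WNT7A and AXIN2, were examined in Ishikawa and Hec1A cells. A peak was counted when its centre lay in 1 of 4 windows of the hg19 genome, which were 22.3 to 22.6 Mb of chromosome 1 for WNT4, 55.3 to 55.8 Mb of chromosome 3 for WNT5A, 13.75 to 14.05 Mb of chromosome 3 for WNT7A and 63.35 to 63.75 Mb of chromosome 17 for AXIN2. The windows held 40 of 68107 listed peaks, of which 33 were among 54855 Ishikawa peaks and 7 among 13252 Hec1A peaks. Binding had been mapped by chromatin immunoprecipitation with a rabbit antibody to FOXA1 followed by sequencing (ChIP-seq). Ishikawa was represented by 6 pooled ChIP libraries and 2 pooled inputs, and Hec1A by 3 pooled ChIP libraries, with 2 Hec1A inputs also labelled. Both are established human endometrial adenocarcinoma lines, and the labels give no treatment or genetic change for either. Each line has 1 peak list called on its pool, so no value has a replicate error and no test between the lines was made.

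Wnt ligands are secreted lipid-modified proteins that bind Frizzled receptors. In the canonical branch this stabilises beta-catenin, which acts with TCF/LEF factors on target genes, and in the non-canonical branch it acts without beta-catenin, for example through ROR2. WNT4 is needed for the female reproductive tract to form and for the endometrial stroma to decidualise in mice. WNT5A is the best known non-canonical ligand, and WNT7A is made by the uterine epithelium and is needed in mice for the patterning of the uterus and its glands. AXIN2 is a scaffold of the complex that marks beta-catenin for destruction and is itself induced by beta-catenin, so it acts as a feedback inhibitor. FOXA1 is a forkhead transcription factor that binds closed chromatin and opens it for other factors, among them the oestrogen receptor.

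With RefSeq protein-coding genes sorted by their lower GRCh38 coordinate, those before and after are CDC42 and ZBTB40 for WNT4, and LRTM1 and ERC2 for WNT5A. They are FBLN2 and CHCHD4 for WNT7A, and RGS9 and CEP112 for AXIN2. This order need not give the nearest gene by distance. An hg19 annotation was not used here, so peaks are given by position and are not assigned to an exon, an intron or a promoter. To show the start regions of the ligands, the 250 bases before each start that RefSeq gives for them in GRCh38.p14 are printed 5′ to 3′ on the minus strand, from which all of them are transcribed. They lie at chr1:22143098-22143347 for WNT4, chr3:55487307-55487556 and chr3:55481399-55481648 for the upstream and the downstream start of WNT5A, and chr3:13880072-13880321 for WNT7A, in GRCh38.p14 coordinates that do not compare with the hg19 positions of the peaks.
WNT4: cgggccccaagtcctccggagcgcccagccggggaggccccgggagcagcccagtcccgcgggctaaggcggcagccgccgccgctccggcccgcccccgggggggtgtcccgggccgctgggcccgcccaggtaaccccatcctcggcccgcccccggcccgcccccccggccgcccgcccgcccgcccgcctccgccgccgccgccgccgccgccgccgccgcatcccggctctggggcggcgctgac
WNT5A upstream start: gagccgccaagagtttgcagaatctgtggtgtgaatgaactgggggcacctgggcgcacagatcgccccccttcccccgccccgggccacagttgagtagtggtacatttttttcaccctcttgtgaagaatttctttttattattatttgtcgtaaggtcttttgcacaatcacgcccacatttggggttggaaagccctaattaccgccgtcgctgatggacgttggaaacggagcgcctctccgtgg
WNT5A downstream start: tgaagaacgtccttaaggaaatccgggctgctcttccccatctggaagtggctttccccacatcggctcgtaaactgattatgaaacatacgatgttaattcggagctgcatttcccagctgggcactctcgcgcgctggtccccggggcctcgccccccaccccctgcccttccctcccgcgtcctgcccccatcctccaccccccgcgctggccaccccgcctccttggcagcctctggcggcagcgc
WNT7A: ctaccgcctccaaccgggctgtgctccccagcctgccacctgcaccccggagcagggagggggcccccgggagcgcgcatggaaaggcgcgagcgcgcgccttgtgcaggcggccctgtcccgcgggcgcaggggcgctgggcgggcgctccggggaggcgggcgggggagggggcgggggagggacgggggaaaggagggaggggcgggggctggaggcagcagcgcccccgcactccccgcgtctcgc

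G and C made up 86.8% of the WNT4 stretch, 52.8% and 64.4% of the upstream and downstream WNT5A stretches, and 80.4% of the WNT7A stretch, beside a median of 58.0% over all 35116 stretches of this length in the table. None of the 4 held the forkhead letters TGTTTAC or TATTTAC on either strand, which 5.27% of all stretches did. None held the TCF/LEF letters CTTTGAT or CTTTGTT on either strand, which 6.60% of all stretches did. This says only that these letters are not in these stretches. The sequences under the peaks were not analysed here.

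The 4 windows together span 1.5 Mb. Their 33 Ishikawa peaks came to 22.0 per Mb, beside 18.7 per Mb over the whole Ishikawa list, and their 7 Hec1A peaks to 4.67 per Mb, beside 4.44 per Mb over the whole Hec1A list. The chromosomes of the windows had higher rates than the whole lists. On chromosomes 1, 3 and 17 they were 18.8, 20.1 and 21.3 per Mb in Ishikawa. In Hec1A they were 4.73, 5.76 and 8.83 per Mb. The windows held 0.0602% of the Ishikawa list (95% Wilson interval 0.0428% to 0.0845%) and 0.0528% of the Hec1A list (0.0256% to 0.109%). Wilson intervals here cover counting error and treat peaks as independent. The lists passed different filters, so these shares do not compare binding alone. Per the file headers, 69.9% of putative Ishikawa peaks were removed on input, and the Hec1A header records no input step, although the name given to that list refers to inputs.

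The windows were not filled alike. In Ishikawa, AXIN2 had 11 peaks, WNT4 had 10, and WNT5A and WNT7A had 6 each. When the genome was divided into tiles of a window's own width, from the first to the last peak of each chromosome except Y and M, the median tile held 7 Ishikawa peaks at the width of the AXIN2 window, 5 at that of the WNT4 and WNT7A windows and 9 at that of the WNT5A window. The WNT4 count lay above the upper quartile of 8 and below the 90th percentile of 11. The AXIN2 count equalled the upper quartile of 11, and the WNT5A count lay between the lower quartile of 5 and the median. In Hec1A, WNT4, WNT7A and AXIN2 had 2 peaks each, where the median tile held 1. The upper quartile was 2 at the width of the WNT4 and WNT7A windows and 3 at that of the AXIN2 window, so none of these counts exceeded it. WNT5A had 1 peak, where the median tile held 2. The tiles were not matched to a window's own chromosome. Against the Hec1A rate of their chromosomes, AXIN2 was lower, at 5 per Mb beside 8.83, and WNT5A at 2 beside 5.76. WNT4 and WNT7A were higher, at 6.67 per Mb each beside 4.73 and 5.76. With 1 or 2 peaks per window, these differences were not tested.

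**Figure D1:**
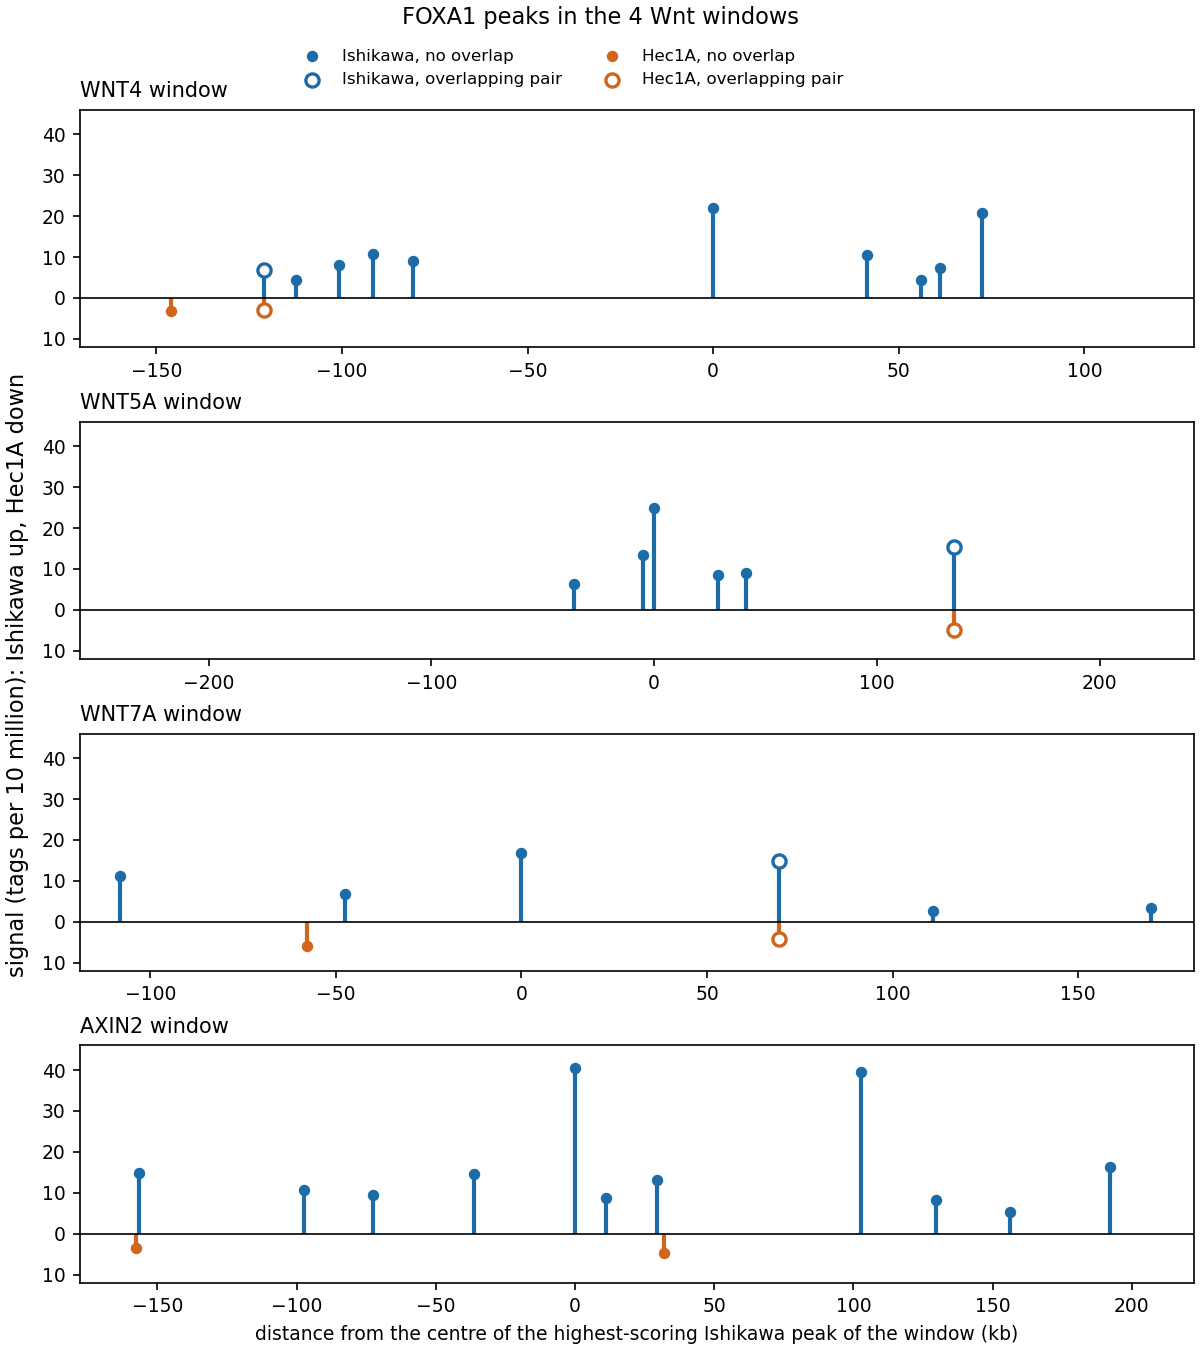
Signal of each FOXA1 peak in the 4 windows (vertical axis, tags per 10000000, with Ishikawa drawn upward and Hec1A downward) against its distance from the highest-scoring Ishikawa peak of the window (horizontal axis, kb). Each line is 1 peak and open circles mark the 3 overlapping pairs. The tallest Ishikawa lines, at 40.5 and 39.5, stand in the AXIN2 window, which has no overlapping pair, and no Hec1A line exceeds 5.87. Over the whole Ishikawa list 12.8% of peaks overlapped a Hec1A peak.

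Peak strength was read from the deposited signal, which is the number of tags (mapped fragment ends) in a peak per 10000000 tags, and from the deposited fold over the local region, which compares a peak with the surrounding 10000 bp. The median signal of the 33 Ishikawa peaks was 10.4, beside 9.69 over the Ishikawa list, and 17 of them lay above that list median. The 7 Hec1A peaks had a median signal of 4.12, beside 4.96 over the Hec1A list, and 1 of them lay above it. Ishikawa peaks in the windows thus ranged around the middle of their list. By signal, the 7 Hec1A peaks lay mostly in the lower part of theirs. By score 2 of the 7 lay above the Hec1A list median, and by local fold 2 did. So few peaks do not show that this is a trait of the windows. By the findPeaks score, the authors' tag number with a limit per position, the median window peak had 45.0% of the Ishikawa list ranked above it in Ishikawa, and 68.0% of the Hec1A list ranked above it in Hec1A.

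The fold over the local region reached 8 in 15 of 33 Ishikawa peaks, or 45.5%, where the share over the whole Ishikawa list was 40.1%. It reached 8 in 1 of 7 Hec1A peaks, or 14.3%, where the share over the whole Hec1A list was 26.0%. The Wilson intervals of the window shares were 29.8% to 62.0% in Ishikawa and 2.57% to 51.3% in Hec1A, and each covers the share of its own list. A clonal fold above 1 marks tags stacked on fewer positions than their number would give. It was found in 7 of 33 Ishikawa peaks, where the list share was 25.1%, and in 3 of 7 Hec1A peaks, where the list share was 28.8%.

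**Figure D2:**
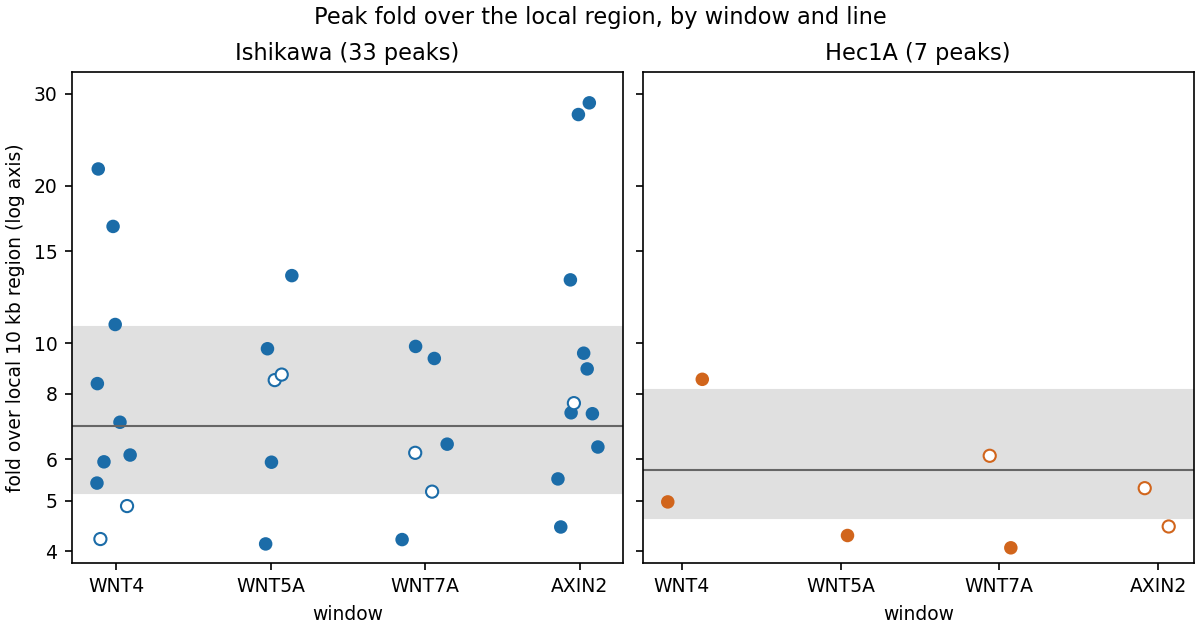
Fold of each peak over its local 10 kb region (log axis) by window, for the 33 Ishikawa peaks on the left and the 7 Hec1A peaks on the right. Points are single peaks, open points have a clonal fold above 1, the line is the median of the whole list (6.93 in Ishikawa and 5.71 in Hec1A) and the band its quartiles. The highest Ishikawa points are those of AXIN2 at 28.8 and 27.4, and the only Hec1A point above 8 is a WNT4 peak at 8.53.

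In the WNT4 window the 10 Ishikawa peaks fell into 3 groups when split at gaps above 20 kb, a distance chosen after the positions were seen. A run of 5 peaks spanned 40.5 kb from chr1:22349366-22349718 to chr1:22389547-22389899, with signals of 4.48 to 10.7. A single peak followed at chr1:22470357-22470709 with a signal of 21.9, and 4 peaks then spanned 31.3 kb up to chr1:22542676-22543028. The strongest sites thus lay outside the first run.

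The peak at chr1:22470357-22470709 had the highest score of the window, rank 8884 in the Ishikawa list, with 753 tags (95% Poisson interval 700.2 to 808.8), a local fold of 16.7 and an input fold of 10.6. The peak at chr1:22542676-22543028 came next, at rank 9488, with a signal of 20.7, a local fold of 21.6 and an input fold of 11.5. The peak at chr1:22378859-22379211 had the third score, with a signal of 10.7 and a local fold of 7.06. The 2 leading peaks were also narrowly centred: the deposited ratio of tags gathered around the peak centre was 0.918 and 0.945, above the upper quartile of the list, 0.883. No Hec1A peak lay closer than 121 kb to the first or 193 kb to the second.

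Hec1A had both of its WNT4 peaks at the low end of the window. The one at chr1:22349450-22349704 had a signal of 2.94 and overlapped the first peak of the Ishikawa run, whose signal was 6.89. The one at chr1:22324471-22324725 had a signal of 3.08 and a local fold of 8.53, and lay 24.9 kb from the nearest Ishikawa peak. Its local background, computed as signal over local fold, was 0.361 tags per 10000000, beside a Hec1A list median of 0.810. Its local fold was the highest of the 7 Hec1A peaks.

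In the WNT5A window the first of the 6 Ishikawa peaks was at chr3:55521513-55521865, 222 kb from the lower edge, and the last was 107 kb from the upper edge. The strongest was at chr3:55557529-55557881, rank 7538, with a signal of 24.8, a local fold of 9.76 and an input fold of 9.65. A peak at chr3:55552589-55552941, with a signal of 13.3 and a local fold of 5.92, lay 4.94 kb from it, the closest spacing of any 2 Ishikawa peaks in the 4 windows. The local background of these neighbours was 2.54 and 2.25 tags per 10000000, the first and the third highest of the 33, beside a list median of 1.34.

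The second-ranked WNT5A peak, at chr3:55692339-55692691, stood alone, 93.5 kb from the next Ishikawa peak, with a signal of 15.3, a local fold of 13.5 and an input fold of 14.8. It overlapped the only Hec1A peak of the window, at chr3:55692417-55692671, which had a signal of 4.96 and a local fold of 4.30. That Hec1A peak was 537 kb from the next peak of its own list. The peaks at chr3:55586347-55586699 and chr3:55598817-55599169, named after their values were seen, had clonal folds of 1.59 and 1.80, with signals of 8.64 and 8.96 and with scores of 202 and 187.

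WNT7A had the most even spacing, with gaps of 41.4 to 69.3 kb between its 6 Ishikawa peaks, where the gaps were 5.04 to 80.8 kb at WNT4, 4.94 to 93.5 kb at WNT5A and 11.1 to 73.0 kb at AXIN2. The nearest neighbour of each lay farther away than the upper quartile of the Ishikawa list, 31.5 kb. The peak of highest score, at chr3:13868722-13869074, had a signal of 16.8 and a local fold of 9.35, while its fold over input was 5.43, with 12 input tags on it beside a list median of 5. The next, at chr3:13938026-13938378, had a signal of 14.9, a local fold of 9.86 and, with 4 input tags, an input fold of 14.4. The third, at chr3:13760518-13760870, had a signal of 11.3 and a local fold of 6.17.

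The middle one of these peaks was shared with Hec1A, where the peak at chr3:13938076-13938330 had a signal of 4.12 and a local fold of 4.06, just over the threshold of 4. The other Hec1A peak of the window, at chr3:13810867-13811121, had the highest signal of the 7, 5.87, and a clonal fold of 1.95, close to the limit of 2, and its score of 36 was near the tag threshold of 32. It lay 10.3 kb from an Ishikawa peak at chr3:13821140-13821492, which had the same clonal fold of 1.95 and an input fold of 25.9 that rests on 1 input tag. The 2 weakest peaks of the 33 were also here, with signals of 2.71 and 3.40.

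AXIN2 held the 2 strongest Ishikawa peaks of the 4 windows, and its median signal, 13.2, was the highest of the 4. Its median local fold of 7.68 was below the 8.605 of WNT5A, and its median input fold of 9.01 below the 10.86 of WNT7A. The WNT7A median takes in input folds of 25.9 and 26.35 that rest on 1 and 0.5 input tags. An AXIN2 input fold of 51.2 rests on 1 input tag. The peak at chr17:63527557-63527909 ranked 3725 in the list, with a signal of 40.5, 1392 tags (95% Poisson interval 1320 to 1467), a local fold of 27.4 and an input fold of 12.1. The peak at chr17:63630139-63630491 ranked 4055, with a signal of 39.5, 1358 tags (1287 to 1432), a local fold of 28.8 and an input fold of 21.8. The signal intervals of these 2 sites, 38.4 to 42.7 and 37.4 to 41.7, overlap, so they cannot be ordered, and both lie above that of the strongest WNT5A site, 23.2 to 26.5. The third by score, at chr17:63719664-63720016, had a signal of 16.3 and a local fold of 8.93.

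Weaker AXIN2 peaks differed most in their fold over input. The peak at chr17:63557101-63557453 had the highest input fold of the 33, 51.2, from a signal of 13.2 on 1 input tag, and its local fold was 5.50. The peak at chr17:63371116-63371468 had a similar signal of 14.9 and a local fold of 13.2, with 12 input tags and an input fold of 4.80. Both were named after their values were seen. The input fold reached 8 in 16 of the 33 Ishikawa peaks, or 48.5% (95% Wilson interval 32.5% to 64.8%), where the share over the whole Ishikawa list was 48.6%, in 7 of 11 at AXIN2, 3 of 10 at WNT4 and 3 of 6 at each of WNT5A and WNT7A.

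**Figure D3:**
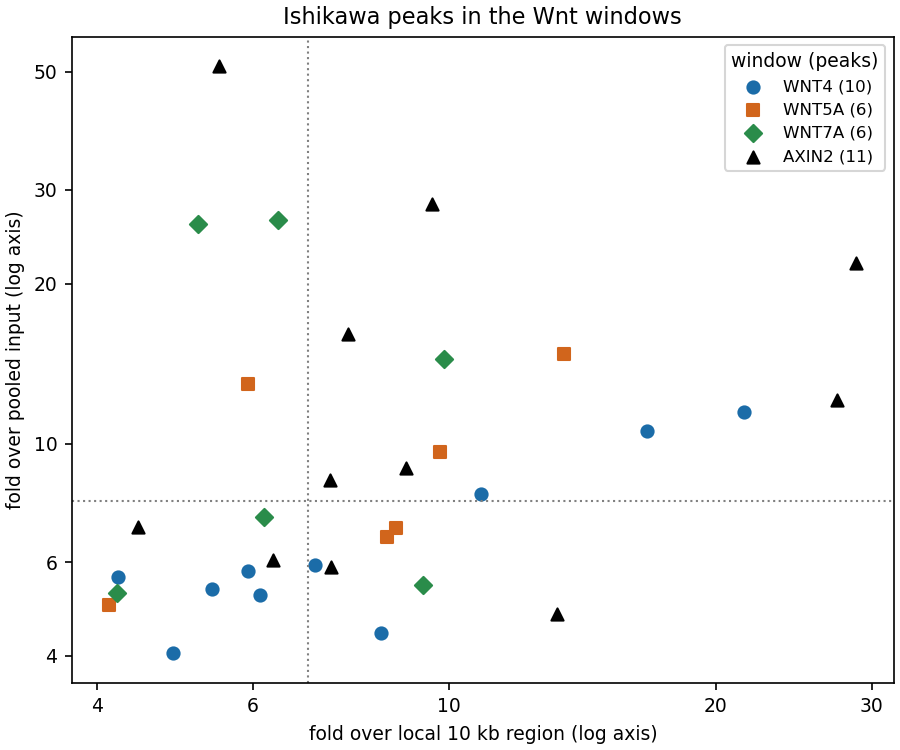
Fold over the pooled input (vertical log axis) against fold over the local 10 kb region (horizontal log axis) for the 33 Ishikawa peaks, by window. Dotted lines are the medians of the whole Ishikawa list, 7.80 over input and 6.93 over the local region. The AXIN2 peaks at a local fold above 27 and the WNT4 peaks above 16 also lie above the median over input, while the AXIN2 peak at an input fold of 51.2 lies below the median over the local region.

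No Ishikawa peak inside the AXIN2 window was overlapped by a Hec1A peak, although Hec1A had peaks close to 2 of them. A site shared by both lines lay just past the upper edge of this window. The Hec1A peak at chr17:63369981-63370235 lay 1.18 kb from the Ishikawa peak with a local fold of 13.2, with a signal of 3.57 and a score of 32, which is the tag threshold itself. The Hec1A peak at chr17:63559695-63559949 lay 2.55 kb from the Ishikawa peak with the highest input fold, with a signal of 4.68 and a score of 37. Their clonal folds were 1.27 and 1.83. Near the 2 strongest Ishikawa sites of the window, the closest Hec1A peaks were 32.1 and 70.5 kb away.

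Over the 4 windows, 3 of 33 Ishikawa peaks overlapped a Hec1A peak by at least 1 bp, or 9.09% (95% Wilson interval 3.14% to 23.6%), where 12.8% of the whole Ishikawa list did. Seen from the other list, 3 of 7 Hec1A peaks overlapped an Ishikawa peak, or 42.9% (15.8% to 75.0%), where 52.9% of the whole Hec1A list did. Both intervals cover the share of their own list, and that for 7 Hec1A peaks is wide. With centres within 10 kb, 6 of 33 Ishikawa peaks and 5 of 7 Hec1A peaks had a neighbour in the other list, where the list shares were 20.8% and 70.4%.

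Hec1A was sequenced less deeply than Ishikawa, and the part of depth in the missing partners was not tested. The tags that the Ishikawa peaks would give at Hec1A depth are only described here. If Hec1A had the same signal per base, 29 of the 30 unpartnered Ishikawa peaks would have given at least the Hec1A tag threshold of 32 at Hec1A depth and peak width, with a median of 107 tags over the 29, and the strongest AXIN2 site would have given 417. Over the whole Ishikawa list, partnered peaks included, 99.1% of peaks would have passed, and with partnered peaks included 32 of the 33 window peaks would have. Listed Ishikawa peaks had already passed a threshold of 88 tags, so this outcome was nearly fixed in advance and cannot decide on depth. At the shared sites of both lists, however, the signal per base was higher in Ishikawa by a median of 2.54 times. If Hec1A signals were lower by that factor, a case added after the values were seen, 22 of the 30 would have reached the threshold and 8 would not. The median was then 40.1 tags over the 30, with 164 for the strongest AXIN2 site. Over the whole Ishikawa list, partnered peaks included, 62.8% would have reached the threshold. The factor comes only from sites where Hec1A passed its own filters, so it may be too small for sites without a Hec1A peak. In both cases all tags of a peak were scaled, while the score limits tags per position. The Hec1A peak at chr17:63369981-63370235, for example, had 51 tags and a score of 32, the threshold itself. The numbers of peaks said to reach the threshold may therefore be too high where tags are stacked. A Hec1A site could also have been removed for a local fold under 4 or for clonality, and sites that were not listed have no value here, so a level in Hec1A cannot be given for these 30.

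At the 3 shared sites the signal was higher in Ishikawa. Per the file headers, the approximate immunoprecipitation efficiency, the share of tags that lie in peaks, was 9.66% in Ishikawa and 1.12% in Hec1A, and its part in these ratios was not tested. The WNT4 site had a signal of 6.89 in Ishikawa and 2.94 in Hec1A, a ratio of 2.34 (95% interval from the tag counts 1.69 to 3.34). The WNT5A site had 15.3 in Ishikawa and 4.96 in Hec1A, a ratio of 3.08 (2.40 to 4.01). The WNT7A site had 14.9 in Ishikawa and 4.12 in Hec1A, a ratio of 3.62 (2.75 to 4.81). The intervals overlap one another, cover counting error only and leave out the spread between libraries. Over all 7012 overlapping pairs the median ratio was 3.53, with quartiles of 2.10 and 5.83, and all 3 sites lay inside those quartiles.

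Peaks were 353 bp wide in Ishikawa and 254 bp wide in Hec1A. Per base of width the ratios were 1.69 at WNT4, 2.22 at WNT5A and 2.60 at WNT7A, beside a median of 2.54 over all pairs. The fold over the local region, which is measured within each line, was 5.40 in Ishikawa and 4.97 in Hec1A at WNT4, 13.5 and 4.30 at WNT5A, and 9.86 and 4.06 at WNT7A. By this measure the lines were nearly alike at the WNT4 site, with a ratio of 1.09, and apart at the WNT5A and WNT7A sites, with ratios of 3.13 and 2.43, where the median over all pairs was 1.90 with quartiles of 1.19 and 2.93. As point values, the WNT4 site lay below the lower quartile, the WNT5A site above the upper one and the WNT7A site between them. No interval was computed for these local fold ratios, which rest on 42, 71 and 59 Hec1A tags at WNT4, WNT5A and WNT7A. Whether the sites differ from one another or from the quartiles beyond counting error was therefore not tested. The Hec1A local background was 0.592 at the WNT4 site and 1.15 and 1.01 at the WNT5A and WNT7A sites of chromosome 3, beside a list median of 0.810. In Ishikawa it was 1.28, 1.14 and 1.51 at WNT4, WNT5A and WNT7A, beside a list median of 1.34. Each value is for the peak width of its own line. By definition, the local fold ratio is the signal ratio divided by the ratio of these backgrounds. The paired centres lay 35, 29 and 1 bp apart at WNT4, WNT5A and WNT7A, where the median over all pairs was 14 bp.

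**Figure D4:**
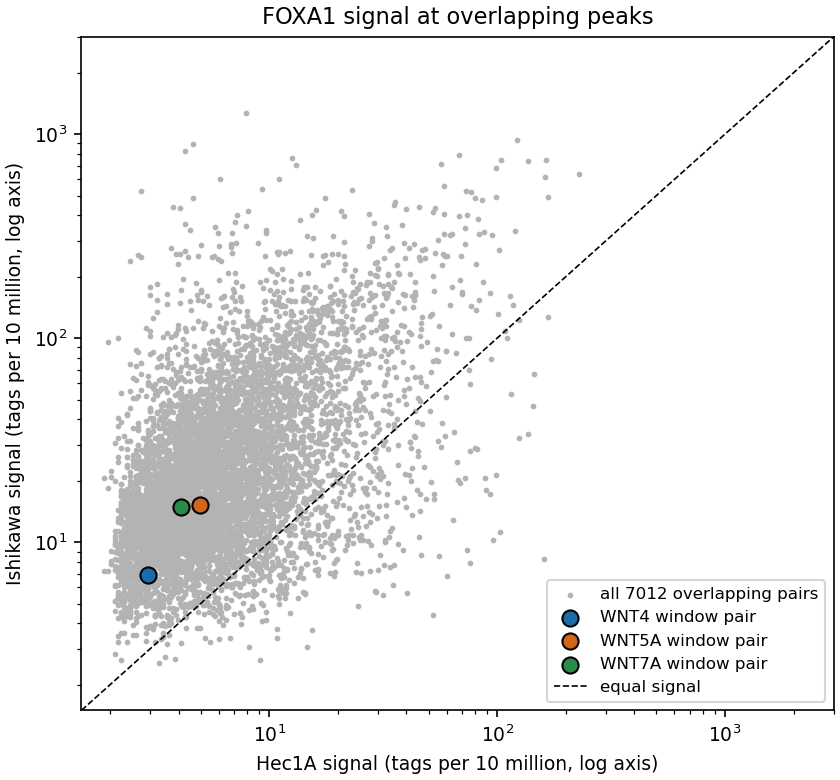
Signal at overlapping peaks in Ishikawa (vertical log axis) and Hec1A (horizontal log axis), in tags per 10000000. Grey points are all 7012 pairs, coloured points the pairs of the WNT4, WNT5A and WNT7A windows, and the dashed line marks equal signal. The 3 coloured points lie above the line, at Ishikawa signals of 6.89, 15.3 and 14.9, and each lies below the medians over all pairs, 19.1 in Ishikawa and 5.59 in Hec1A.

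The window edges cut off some strong neighbours. The nearest Ishikawa peak above the AXIN2 window, 31.4 kb past its edge, had a signal of 53.7, higher than any of the 33, and the nearest Hec1A peak there, also 31.4 kb past the edge, had 10.1, higher than any of the 7. Their centres lay 31.437 and 31.44 kb past the edge, so these 2 peaks overlap, and the lack of a shared AXIN2 site depends on the window. The outermost peaks inside that edge had signals of 16.3 in Ishikawa and 4.68 in Hec1A. Below the WNT4 window the nearest Ishikawa peak outside had a signal of 13.6, at 16.2 kb, and the nearest Hec1A peak outside had 25.0, at 42.3 kb, beside 6.89 and 3.08 for the outermost peaks inside. Below and above the WNT7A window the nearest Ishikawa peaks outside had 17.8 and 4.92, beside 11.3 and 3.40 inside. The WNT5A window had no peak of either list within 100 kb of its edges on the inside.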

How the data were processed

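FOXA1 ChIP-seq was analysed from the 2 deposited peak lists, 1 for each line. The submitters' processing notes name hg19, HOMER 4.7.2, SAMtools 1.3.1 and Bowtie 1.1.2. The authors ran findPeaks in factor mode on pooled tags, per the file headers, 343739762 in Ishikawa and 143055568 in Hec1A, at a false discovery rate of 0.001 (88 and 32 tags), a local fold of at least 4 and a clonal fold of at most 2. Per the file headers, Ishikawa peaks also had to exceed pooled input by a fold of 4, and the Hec1A command names no input, although the name of the list does. Per the labels' protocols, TruSeq and ThruPLEX libraries are mixed in each pool.

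The deposited signal is a tag count per 10000000 tags, the deposited ratio of centred tags is a fraction, the deposited findPeaks score counts tags with a limit per position, and the deposited local, input and clonal folds are ratios. These are the authors' own values and were used to describe and rank peaks within a list. The deposited p-values were not used.

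Computed here, with Python 3.11.15, pandas 2.3.3 and SciPy 1.17.1, were window membership by peak centre, overlap of at least 1 bp, distances between centres, local background (signal over local fold), tags (signal times depth, rounded), exact 95% Poisson intervals of tags, exact conditional 95% intervals of tag ratios and 95% Wilson intervals of shares. Fragments are not independent molecules, so these intervals cover counting error only. The functions were tested on simulated lists. In each window every Hec1A peak, every overlapping pair and the 3 Ishikawa peaks of highest score are named. The genes and windows, and the choices of analysis, were made with earlier results of these data known. No enrichment test was run. Values per library and an hg19 genome or annotation were not used here, so a wider list of Wnt pathway genes was not analysed.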

Additional observations from a re-analysis of the deposited data

How the results depend on the processing

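Of 88 alternatives, 40 concern the totals over the windows, the shares, the ranks and the shared sites, and 22 of these stayed within 1.5 times of a count or within the interval or spread of the value. The other 18 follow. The Ishikawa total of 33 became 54 with windows of 2 times the width and 17 with windows of 0.5 times the width around the same middle. The Hec1A total of 7 became 13 and 2 with these windows. At a local fold of at least 8, 15 Ishikawa peaks and 1 Hec1A peak were left, and none overlapped, so both shares were 0%. At an input fold of at least 8, 16 Ishikawa peaks were left. With clonal folds limited to 1, 4 Hec1A peaks remained in the windows and 75.0% of them overlapped an Ishikawa peak. With the Ishikawa list reduced to the length of the Hec1A list, 6 Ishikawa peaks were left and 0% of either line's window peaks overlapped. Stricter thresholds leave fewer peaks by construction, while the cause of the changed shares was not tested. Per base of width the ratio was 2.22 at the WNT5A site and 2.60 at the WNT7A site. This change follows from the peak widths of 353 bp in Ishikawa and 254 bp in Hec1A, which are the same for every pair. By local fold the ratio was 2.43 at the WNT7A site and 1.09 at the WNT4 site. By definition, that change follows from the local backgrounds of the lines at each site. Of the 48 counts for single windows, 19 stayed within 1.5 times and 29 did not, as small counts move easily. With any overlap with the window in place of the centre, all counts were equal to those given. Leaving out libraries was not run; the lists hold no values per library. No paired analysis was possible because each list comes from 1 pool and carries no replicate numbers.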
